A study of Mus musculus with 16 samples.

Results

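The collagen genes of the mouse were followed through a map of chromatin loops in the newborn cochlea. A gene was taken as a member when it was protein coding, lay on an autosome and carried a symbol of the form Col, a number, a and a number in the GENCODE vM21 annotation of mm10. This rule found 42 genes among 20807 autosomal protein-coding genes: 11 that encode chains of the fibrillar collagens, 7 of the basement membrane collagens and 24 of the other collagens. No measured value entered the rule.

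The study profiled whole cochleae of C57Bl/6 mice, collected at postnatal day 0 per the sample labels and at day 0 or 1 per the design text of the series, and the labels name no treatment and no genotype. Micro-C, which cuts crosslinked chromatin with micrococcal nuclease and joins fragments that lie close together in the nucleus, was run on 4 replicates. The study's text calls replicate 4 a technical one while its supplement counts all of them as biological, and the labels do not settle this. The loop list was called on the merged replicates and held 6798 loops, of which 6689 lay on autosomes. Each loop joins a pair of 10 kb anchor bins and has a false discovery rate (FDR), with 0.0999581 as the highest listed. The list holds no contact counts and no value per replicate, so the number of contacts behind each loop is unknown, no spread between replicates could be set beside any value, and no test was run. A loop made in few cochlear cells and a weak loop made in all of them cannot be told apart in a map of whole tissue, and the list holds no expression with which the tissue label could be checked.

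Collagens are triple helical proteins of the extracellular matrix. The fibrillar types assemble into cross-banded fibrils, type IV forms the sheet of basement membranes, and the FACIT types (fibril-associated collagens with interrupted triple helices) sit on the surface of fibrils. In the cochlea, types II, IX and XI are among the collagens of the tectorial membrane. The basilar membrane is a sheet of matrix with collagen fibres, and inherited variants in several collagen genes cause hearing loss. A chromatin loop brings a pair of distant segments of a chromosome together, and many loops end at sites bound by CTCF, a zinc finger protein that halts the cohesin ring when its binding sequence faces into the loop.

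Several sequences carry the descriptions that follow. The first set shows the best match to the CTCF consensus, 14 bases long, in anchor bins of collagen loops, with 8 genomic bases on either side. It was chosen to show a pair facing into its loop at the type IV genes, the bin shared by the loops of Col6a6, the bin shared by 3 loops at Col12a1, the start site loop of Col11a1 and the loop with the lowest FDR at a collagen gene, which runs from the body of Col22a1 to a bin upstream of it. Each run is read 5′ to 3′ on the strand of the match, from GRCm38.p6, and capitals mark the match.
Col4a4 anchor, chr1:82554521-82554550, plus strand, 0 mismatches: agaagacgCCACTAGGTGGCACtgcaatat
Col4a3 anchor, chr1:82641856-82641885, minus strand, 0 mismatches: caatttcgCCACCAGGGGGCGGtcttgttc
Col6a6 anchor, chr9:105693952-105693981, plus strand, 1 mismatch: aggcacccGCAGCAGGGGGCGCcctactcc
Col12a1 upstream anchor, chr9:79723276-79723305, minus strand, 0 mismatches: tatctcttCCACTAGAGGGCGCctgtcacc
Col12a1 partner at 680 kb, chr9:79045495-79045524, plus strand, 0 mismatches: agtgttttCCACCAGGGGGCGCcccacttt
Col11a1 anchor with the start site, chr3:114032532-114032561, minus strand, 0 mismatches: gaagaaaaCCAGCAGAGGGCAGaactgctg
Col11a1 partner, chr3:113657134-113657163, plus strand, 1 mismatch: ctgctctgCCACAAGGGGGCAGtggcccag
Col22a1 anchor in the gene, chr15:71924635-71924664, minus strand, 1 mismatch: ctgagcatCCACTATGTGGCAGgtactgtt
Col22a1 anchor upstream, chr15:72048320-72048349, plus strand, 1 mismatch: tcctactgGCACCAGGGGGCGCtctcccac
The plus strand match lay in the left bin and the minus strand match in the right bin at Col4a4 and Col4a3, at Col12a1 and at Col11a1, so that these matches faced each other across the loop, and at Col22a1 the arrangement was the opposite.

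The second set shows the sequence upstream of Col6a2 and Col6a1, since these were the only collagen genes with start sites in both anchor bins of 1 loop. Both runs come from RefSeq promoter entries of GRCm38.p6 on the minus strand, end just before the start site and are read 5′ to 3′, and 3 promoter motifs were searched on both strands and are written in capitals. These were the GC box with the letters GGGCGG, the box that binds the NF-Y factor with the letters CCAAT, and the TATA box with the letters TATAAA. The run of Col6a1 was kept to the 126 bases upstream of both its RefSeq and its GENCODE start, which lie 124 bp apart.
Col6a2, chr10:76623631-76623880: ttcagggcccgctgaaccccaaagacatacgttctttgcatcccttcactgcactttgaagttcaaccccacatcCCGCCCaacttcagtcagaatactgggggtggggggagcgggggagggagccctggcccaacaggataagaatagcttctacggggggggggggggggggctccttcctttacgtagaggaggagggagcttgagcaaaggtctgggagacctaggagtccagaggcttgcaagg
Col6a1, chr10:76726169-76726294: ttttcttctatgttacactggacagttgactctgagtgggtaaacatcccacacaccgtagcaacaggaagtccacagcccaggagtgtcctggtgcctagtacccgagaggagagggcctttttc
The run of Col6a2 held 1 match to GGGCGG, on the opposite strand, and no match to the other motifs, and the 250 bases upstream of the RefSeq start of Col6a1 held none of the 3 motifs. Over all 32851 promoters in the table, 32.7% held GGGCGG, 33.8% held CCAAT and 12.4% held TATAAA in the same 250 bases.

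A loop was counted as an anchor loop of a gene when an anchor bin overlapped the gene body or reached within 20 kb of its start site. By this measure 33 of the 42 collagen genes, 78.6%, had at least 1 anchor loop (95% Wilson interval 64.1 to 88.3%, which covers counting error only), against 36.4% of all autosomal protein-coding genes. An anchor bin held the start site itself in 9 collagen genes, 21.4% (11.7 to 35.9%), against 7.35% of all genes. A loop spanned the gene, with the whole gene between the inner ends of both anchor bins, in 17 collagen genes, 40.5% (27 to 55.5%), against 28.8% of all genes. No anchor loop and no spanning loop was listed for 9 collagen genes, 21.4%, against 48.2% of all genes. All 17 spanned genes also had an anchor loop. For 6 of them a spanning loop was itself an anchor loop, because its anchor lay within 20 kb of the start site. The matching counts over all spanned genes of like length were not computed, so whether these are many cannot be said.

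Collagen genes are long, and a long gene has more bins in which an anchor can fall. The median length was 111 kb for the collagen genes and 17.6 kb for all autosomal protein-coding genes. Among genes of 100 to 200 kb, 18 of 18 collagen genes had an anchor loop (82.4 to 100%), against 70.9% of all 1419 genes of that length. Col4a1, Col4a3, Col4a4, Col6a4, Col6a5 and Col6a6 were among the 18 only through loops that join 2 collagen genes. Without the 7 such loops the count was 12 of 18, 66.7% (43.7 to 83.7%), against 70.5%. Among genes of 200 kb or more, the count was 5 of 6, or 83.3%, against 79.9% of all genes, and Col24a1 was the collagen gene without an anchor loop. Below 20 kb it was 2 of 4 collagen genes against 25.3%, from 20 to 50 kb it was 6 of 11, or 54.5%, against 35.1%, and from 50 to 100 kb it was 2 of 3 against 53.2%, each with an interval that held the share of all genes. When the shares of all genes were weighted by the number of collagen genes in each length group, 57.2% of genes had an anchor loop, or 24 genes of 42 in place of the 33 found. The weighted share was 10.7% for a start site in an anchor bin, or 4.48 genes beside the 9 found, and 32.8% for spanned genes, or 13.8 beside 17. Neighbouring collagen genes share loops, so these genes are not independent. Without the loops that join 2 collagen genes, 26 of 42 genes, 61.9%, had an anchor loop, beside a weighted 57%. The shares of all genes lost only the same 7 loops and kept the loops that join 2 other genes. The collagen side was thus lowered almost alone, and the comparison is not like for like.

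**Figure D1:**
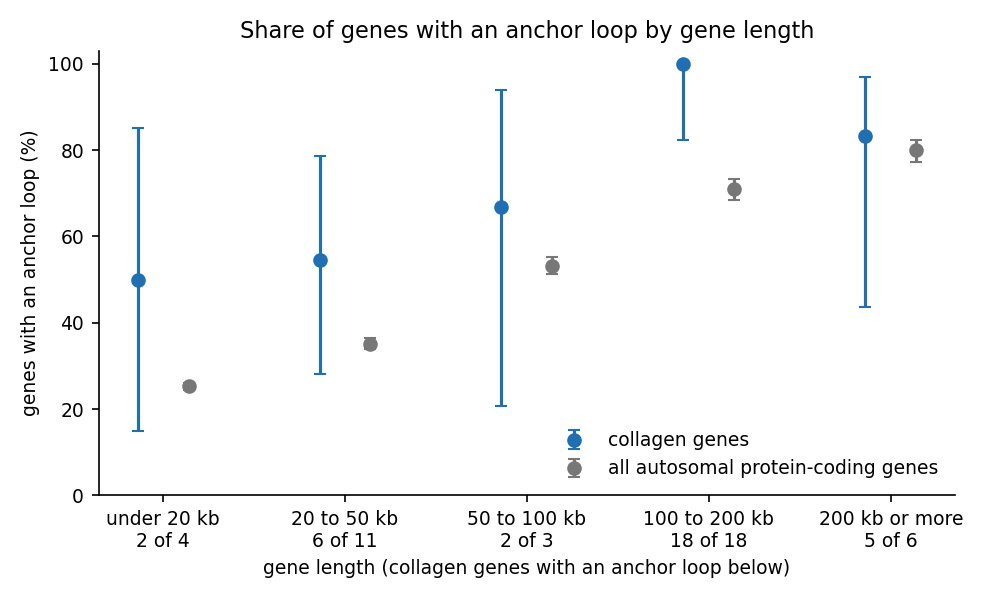
Share of genes with at least 1 anchor loop (%, vertical axis) in 5 groups of gene length, for collagen genes (blue) and for all autosomal protein-coding genes (grey), with 95% Wilson intervals as bars and the collagen counts under each group. The collagen points lie above the grey points in each group, and only in the group of 100 to 200 kb, at 18 of 18 against 70.9%, does the interval of the collagen genes exclude the share of all genes. Genes that share a loop are counted there as separate genes. Without the loops that join 2 collagen genes it is 12 of 18. Its interval of 43.7 to 83.7% then holds the share of all genes, which keeps the loops that join 2 other genes.

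The median distance from the start site to the nearest anchor bin was 19.6 kb for collagen genes and 53.7 kb for all genes, or 41.8 kb with all genes weighted by the lengths of the collagen genes. Both head-to-head type IV pairs have start sites close together, and with 1 gene of each pair left out the collagen median was 17.2 kb over 40 genes. Within 500 kb of the start site, the median number of loop anchors was 9 for collagen genes, with a range of 1 to 14, and 6 for all genes, or 7 weighted by length. The number of anchor loops per collagen gene ran from 0 to 5: 18 genes had 1, 9 had 2, 4 had 3, and Col6a6 and Col12a1 had 4 and 5. The mean was 1.36 anchor loops per collagen gene and 0.584 per gene over all genes, or 1.09 when all genes were weighted by the lengths of the collagen genes. Among genes of 200 kb or more the mean was lower for the collagen genes, at 1.33 beside 2.20 for all genes.

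**Figure D2:**
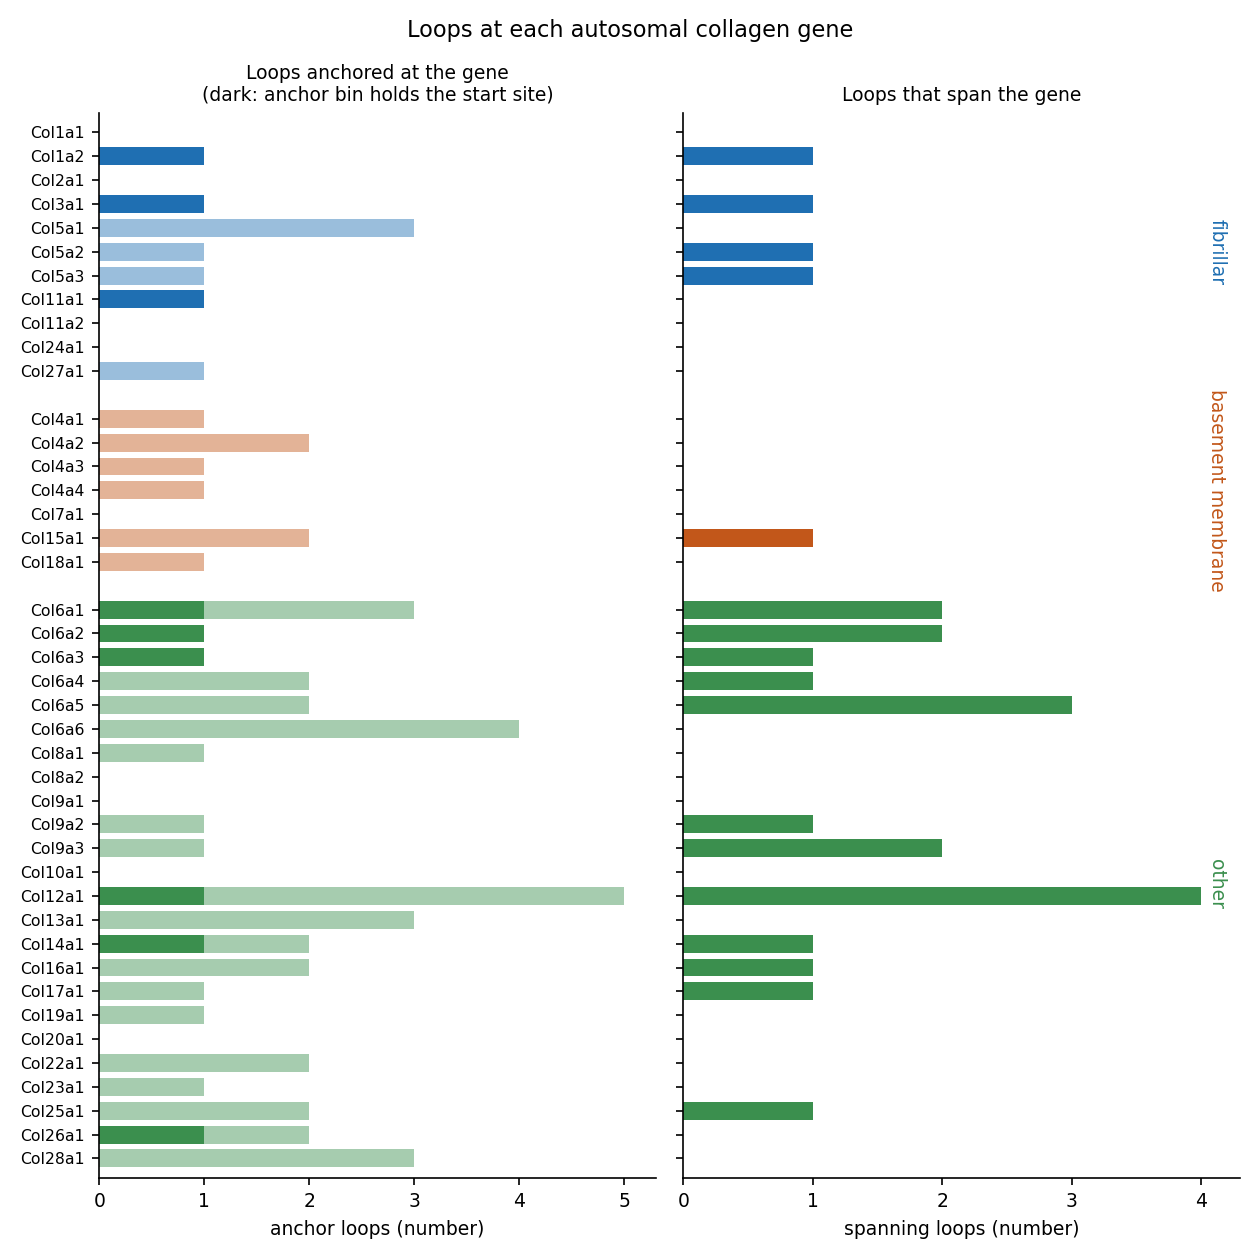
Number of anchor loops (left) and of spanning loops (right) at each of the 42 autosomal collagen genes, grouped by class, with the dark part of the left bars marking loops whose anchor bin holds the start site. Col12a1 has the most listed calls of both, 5 anchor loops and 4 spanning loops, though its neighbouring calls need not be separate loops. None of the 7 basement membrane genes has a dark part, beside a start site in an anchor bin in 12% of all genes weighted by the lengths of these 7. Neither kind of loop is listed for 9 genes.

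Of the 11 fibrillar genes, 7 had an anchor loop, or 63.6% beside a share of 51.3% of all genes weighted in the same way by the lengths of these 11, 3 had the start site in an anchor bin beside a weighted 9.62%, 4 were spanned beside 31.8%, and 4 had no loop of either kind. Each of the 3 start site loops ran upstream, away from the gene. Col3a1, on chr1:45311538-45349706 on the plus strand, encodes the chain of type III collagen of elastic tissues such as vessel walls. The bin with its start site, which also held exon 1 of 51, was joined to a bin 560 kb away at 44750001 to 44760000 in the body of Gulp1 (FDR 0.0106, detection scale 2.11, the smallest scale on which the caller found loops). Col1a2, which encodes a chain of type I collagen and lies on chr6:4504814-4541544, was joined from the bin of its start site and exons 1 to 4 to a bin 80 kb upstream at 4420001 to 4430000 that overlapped no protein-coding gene (FDR 0.00551, scale 2.11). This was the shortest of the 50 anchor loops. Col11a1 encodes a chain of type XI collagen, which starts and limits the growth of type II fibrils, and lies on chr3:114030540-114220718. Its start site bin was joined to a bin 380 kb upstream at 113650001 to 113660000 outside protein-coding genes (FDR 0.0111, scale 2.11), with the facing CTCF matches shown above.

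The remaining fibrillar genes were joined from within the gene or from its edge. Col5a1, a type V chain that sets fibril diameter, had 3 anchor loops, all reaching upstream to bins without a protein-coding gene, at 430, 200 and 110 kb. Their FDRs were 0.0736, 0.0562 and 0.0463 at scale 2.11, all above the median of 0.0112 over all autosomal loops. The first 2 of these shared an anchor bin at chr2:27970001-27980000, over exons 20 to 25 of 66. Col5a2, Col5a3 and Col27a1 each had 1 anchor loop, at 200, 90 and 100 kb. The loop of Col5a3 spanned the gene and reached the start site bin of Olfm2, which encodes an olfactomedin protein. The loop of Col27a1, a cartilage fibrillar chain, joined a bin just upstream of the gene with a bin over exons 29 to 37 of 61. Col3a1 and Col5a2, which lie 24.6 kb apart, were spanned together by 1 loop of 1020 kb (FDR 0.0571) that held no other whole protein-coding gene. Col1a2 was spanned by a loop of 1880 kb around 13 protein-coding genes (FDR 0.0459).

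No loop was anchored at or spanned Col1a1, Col2a1, Col11a2 or Col24a1. Col1a1 encodes the other type I chain and Col2a1 the type II chain of cartilage and of the tectorial membrane. Their start sites lay 126 kb and 44.7 kb from the nearest anchor bin, those of Col11a2 and Col24a1 229 and 142 kb. The 2 genes of type I collagen thus differed in the list: Col1a2 had its start site in an anchor bin, and Col1a1 had no anchor within 100 kb of it.

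**Figure D3:**
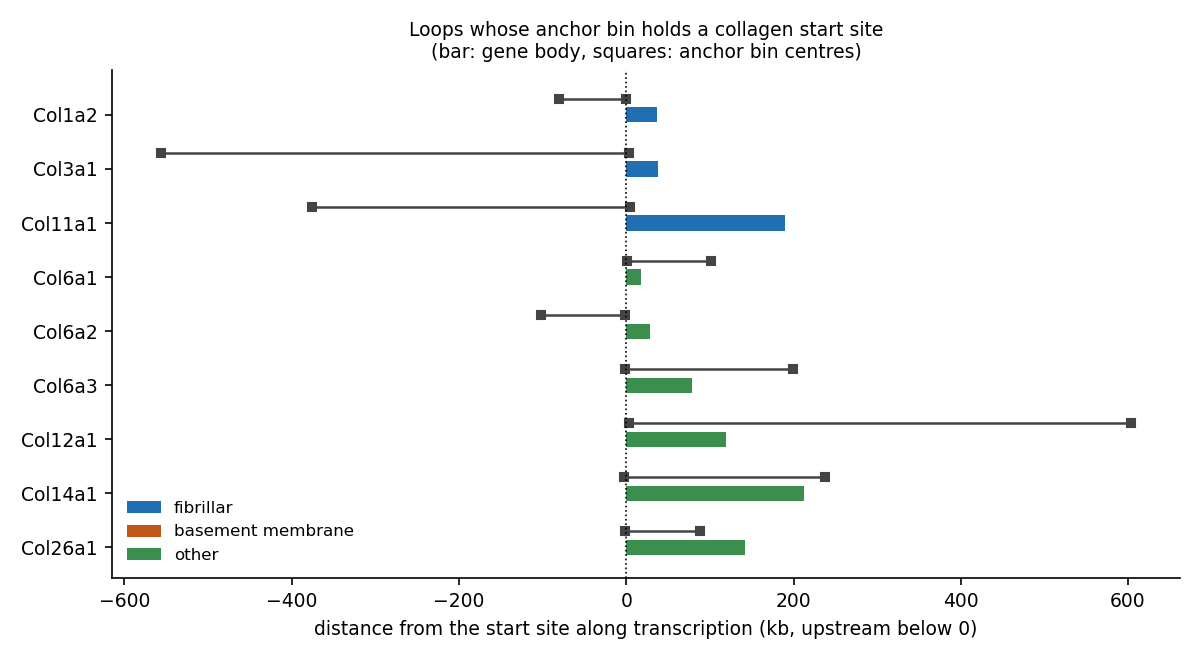
The 9 collagen genes with a start site in an anchor bin: coloured bars give the gene body and squares joined by a line give the centres of both anchor bins, as distance from the start site in kb along transcription, with upstream below 0. The 3 fibrillar genes and Col6a2 have their partner upstream, at 80 to 560 kb, and the other 5 genes have it downstream.

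Of the 7 basement membrane genes, 6 had an anchor loop and Col7a1, the chain of anchoring fibrils under epithelia, had none, with its nearest anchor 176 kb from the start site. The share was 85.7% beside 65.8% of all genes weighted by the lengths of these 7, and Col4a1, Col4a3 and Col4a4 had an anchor loop only through a loop shared with the other gene of their pair. Without the loops that join 2 collagen genes, 3 of the 7, 42.9%, had one. None of the 7 had its start site in an anchor bin, beside a weighted 12% of all genes. The difference was not tested. Start sites lie close together in the head-to-head pairs described next, so the 7 genes are not independent. The 4 autosomal type IV genes all had an anchor loop, beside 70.9% of all genes weighted by the lengths of these 4. None was spanned, beside a weighted 37.1%. Without the loops that join 2 collagen genes, 1 of the 4, 25.0%, had an anchor loop: Col4a2. The 4 genes form 2 head-to-head pairs, with start sites 21 bp apart for Col4a1 and Col4a2 and 72 bp apart for Col4a4 and Col4a3. In each pair a loop joined the body of one gene to the body of the other.

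At Col4a1 and Col4a2, which encode the type IV chains found in nearly all basement membranes, a bin at chr8:11250001-11260000 in an intron of Col4a1 was joined over 140 kb to a bin at 11390001 to 11400000 over exons 5 and 6 of 48 of Col4a2. Its FDR of 1.21e-05 was among the 5 lowest of the collagen loops, with 1.82% of all autosomal loops lower, and its scale was 2.11. The shared start region lay 52.8 kb from the nearer anchor bin. Col4a2 had a second loop of 180 kb from a bin over exons 30 to 38 to a bin in Ankrd10 (FDR 0.0248, scale 2.11). At Col4a4 and Col4a3, the chains that are mutated in Alport syndrome with its hearing loss, a bin in an intron of Col4a4 at chr1:82550001-82560000 was joined over 90 kb to a bin over exons 2 to 5 of 52 of Col4a3 at 82640001 to 82650000 (FDR 5.93e-05). Both pairs had the same layout, with the start sites inside the loop and an anchor in each gene, and 5.46% of all autosomal loops had an FDR lower than that of the second pair.

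Col15a1 and Col18a1 encode the multiplexins of the basement membrane zone. Col15a1 had 2 anchor loops from neighbouring bins over exons 3 to 5 and 6 to 9 of 40. The first ran 140 kb downstream to a bin in Tgfbr1, a receptor of transforming growth factor beta (FDR 0.0105, scale 2.6), the second 130 kb upstream to a bin in Galnt12 (FDR 0.000878, scale 2.11). A loop of 270 kb spanned Col15a1 as the only whole gene inside it (FDR 0.00224). Col18a1 had 1 anchor loop of 100 kb to a bin outside protein-coding genes (FDR 0.000901).

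All 6 type VI genes, which encode the chains of the beaded filaments that surround many cells, had an anchor loop, beside 54.4% of all genes weighted by the lengths of these 6. A loop joined 2 of them in 5 of their 8 anchor loops, and without the loops that join 2 collagen genes 2 of the 6, 33.3%, had an anchor loop: Col6a1 and Col6a3. The start site was in an anchor bin in 3 of the 6, beside a weighted 10.0% of all genes. Col6a2 and Col6a1 were 2 of these 3 through the 1 loop that joins them, and without it Col6a3 was left. Col6a2 and Col6a1 lie in tandem on the minus strand of chromosome 10, at chr10:76595762-76623630 and chr10:76708792-76726168. The bin of the Col6a2 start site at 76620001 to 76630000 was joined over 100 kb to the bin of the Col6a1 start site at 76720001 to 76730000 (FDR 0.00863, scale 2.11). Of all 6689 autosomal loops, 1.49% had protein-coding start sites in both bins. Neither bin held a CTCF consensus match with at most 1 mismatch. Col6a1 had 2 further anchor loops from bins just upstream of it, at 190 kb to a bin in Lss (FDR 0.0125, scale 2.11) and at 280 kb to the bin with the start sites of Mcm3ap and Ybey (FDR 0.0032, scale 3.2). Both of these spanned Col6a2 and Col6a1 together, so that the start site loop lay nested inside them. The start site loop was not kept where neighbouring calls were merged into the call of lowest FDR.

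Col6a3 encodes the chain that joins the Col6a1 and Col6a2 products in the common form of type VI and lies on chr1:90765923-90843971. The bin of its start site and exon 1 of 44 was joined to a bin 200 kb away, past the end of the gene, at 90640001 to 90650000 (FDR 0.00188, scale 2.6). The same far bin was an anchor of a loop of 300 kb that spanned Col6a3 as the only whole gene inside it (FDR 0.0244).

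Col6a6, Col6a5 and Col6a4, whose chains can take the place of the Col6a3 chain, lie in tandem on chromosome 9. A bin at chr9:105690001-105700000, over exons 35 and 36 of 37 of Col6a6, was an anchor of 4 loops that reached in turn the end of Col6a5, the region upstream of Col6a5, the body of Col6a4 and the region upstream of Col6a4. Their distances were 160, 280, 350 and 420 kb and their FDRs 0.000807, 0.00437, 0.0241 and 0.0568, all at scale 2.11. The FDR rose with distance across the 4 calls. Those of 280, 350 and 420 kb each lay within 100 kb of another of them at both anchors, so they need not be separate loops. The partner bin at 105970001 to 105980000 lay 9.36 kb from the Col6a5 start site and that at 106110001 to 106120000 lay 13.2 kb from the Col6a4 start site, so neither start site was itself in an anchor bin. Col6a5 lay wholly inside 3 of the loops and Col6a4 inside 1.

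**Figure D4:**
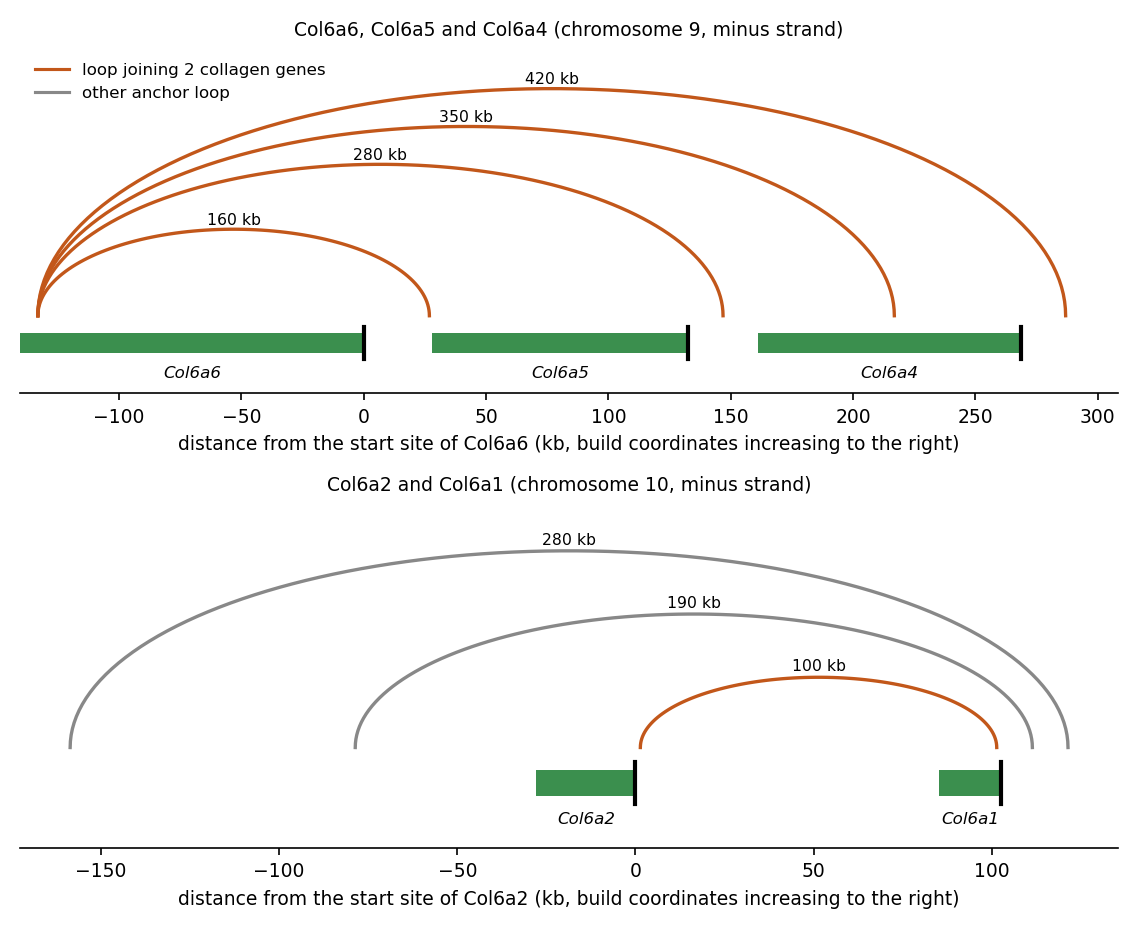
Anchor loops at the type VI gene clusters of chromosome 9 (top) and chromosome 10 (bottom), drawn as arcs between anchor bin centres over the gene bodies (green) and start sites (black ticks), with distance in kb from the start site of Col6a6 or Col6a2 on the horizontal axis. Orange arcs join 2 collagen genes: 4 of 160 to 420 kb leave the same bin of Col6a6, and 1 of 100 kb joins the start site bins of Col6a2 and Col6a1 beneath 2 longer grey arcs.

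In all, 11 pairs of collagen genes lay within 1 Mb of each other on the same chromosome, and a loop joined 5 of them: both type IV pairs, Col6a2 with Col6a1, and Col6a6 with Col6a5 and with Col6a4. The share of joined pairs among all protein-coding genes was not computed, so whether 5 of 11 is many cannot be said. The 6 pairs without a joining loop were Col9a1 with Col19a1, Col3a1 with Col5a2, Col6a2 and Col6a1 with Col18a1, Col9a3 with Col20a1, and Col6a5 with Col6a4. Col3a1 with Col5a2, Col6a2 with Col6a1, and Col6a5 with Col6a4 lay together inside a spanning loop. All 5 joined pairs encode chains of the same type, and among the pairs not joined Col6a5 with Col6a4 also do.

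Of the 9 FACIT genes, 7 had an anchor loop, 77.8% beside 56.9% of all genes weighted by length, and Col9a1 and Col20a1 had none. Col12a1, a chain found on the fibrils of tendon and other dense tissue, lies on chr9:79598991-79718831 on the minus strand and had the most anchor loops of the collagen genes. The bin of its start site and exons 1 and 2 of 66, at 79710001 to 79720000, was joined to a bin 600 kb downstream at 79110001 to 79120000 (FDR 0.0132, scale 2.11), a call that was not kept where neighbouring calls were merged. The next bin, 1170 bp upstream of the start site, was an anchor of 3 further loops, of 680, 940 and 1020 kb (FDR 0.00538, 0.00112 and 0.0797, scale 2.11). The bin after that was an anchor of a loop of 1090 kb (FDR 0.0213, scale 2.6). These 5 loops thus ran in the same direction, over the gene and past its end. For the 4 longer ones Col12a1 was the only whole protein-coding gene inside. Each of the 5 calls lay within 100 kb of another of them at both anchors, so they need not be separate loops. The bins reached by the loops of 1020 and 1090 kb lay in Cd109, a membrane anchored co-receptor gene, and the others overlapped no protein-coding gene. These 2 were the only collagen anchor loops of 1 Mb or more.

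Col14a1, which encodes another fibril surface chain, lies on chr15:55307750-55520803 on the plus strand. The bin of its start site at 55300001 to 55310000 was joined to a bin 240 kb downstream in Mrpl13, just past the end of the gene (FDR 1.86e-05, scale 2.11). A second loop of 180 kb ran upstream from a bin 17750 bp before the start site to a bin at 55100001 to 55110000, neither of which overlapped a protein-coding gene. Its FDR of 3.17e-07 was the sixth lowest of all autosomal loops, with 0.0747% lower. A further loop, of 450 kb, spanned Col14a1 together with Deptor, an inhibitor of mTOR (FDR 0.000332). Col14a1 thus had an anchor loop on either side of its start site, both among the 5 of lowest FDR, and the downstream loop enclosed nearly the whole gene.

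Col22a1, a chain found at tissue junctions such as that of muscle and tendon, lies on chr15:71795795-72034227 on the minus strand. It held the loop with the lowest FDR of the 50, 1.88e-07, rank 2 of all autosomal loops, which joined a bin over exon 23 of 64 at 71920001 to 71930000 with a bin 120 kb away at 72040001 to 72050000, 5.77 kb upstream of the start site. A further loop of 400 kb joined a bin over exons 39 and 40 at 71880001 to 71890000 to a bin in Fam135b (FDR 7.57e-06, scale 2.11 for both loops). The start site lay inside the first loop and outside the other. Col16a1 had 2 anchor loops from the same bin over exons 48 to 59 of 70, of 390 kb to the start site bin of Tmem39b (FDR 0.0166) and of 120 kb (FDR 0.0753), both at scale 2.11.

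Types II, IX and XI are among the collagens of the tectorial membrane. Of their 6 genes 3 had an anchor loop, Col11a1, Col9a2 and Col9a3, or 50% beside a weighted 42.4% of all genes. For both type IX genes the anchor lay upstream of the gene rather than over it, 9.38 and 17.8 kb from the start site, with loops of 200 and 100 kb (FDR 0.0637 and 0.00422). Col9a2 was spanned by its own anchor loop and Col9a3 by 2 loops of 200 and 270 kb, each with 6 or more other whole genes. The nearest anchor to Col9a1 lay 27.6 kb from its start site. Col19a1 had 1 anchor loop of 260 kb over exon 16 of 51 (FDR 0.0124).

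The 4 transmembrane collagen genes all had an anchor loop, beside 66.4% of all genes weighted by the lengths of these 4. Col13a1, a chain of the neuromuscular junction, had 3, of 260, 310 and 110 kb (FDR 0.00228, 0.0654 and 0.0968, scale 2.11). They left from bins over exons 38 to 40, 24 to 32 and 19 to 23 of 41, the first reached Fam241b and the last returned to a bin 0.893 kb upstream of its own start site. Col25a1 had 2, at 470 kb to a bin upstream of the gene and at 90 kb to a bin downstream of it (FDR 0.0408 and 0.0586, scale 2.11), and a loop of 580 kb spanned it at an FDR of 6.51e-05. Col17a1, the hemidesmosome chain, and Col23a1 had 1 each, of 160 and 250 kb. The loop of Col23a1 had both anchors in the gene, over exon 1, with its bin edge 81 bp from the start site, and over exon 6 of 29.

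Of the remaining genes, Col26a1 on chr5:136741759-136883209 had its start site bin joined to a bin 90 kb away in its own body that overlapped no exon (FDR 0.0265, scale 2.11), and a loop of 500 kb from the bin over exons 9 to 13 of 13 to the start site bin of Sh2b2 (FDR 0.0165, scale 3.2). Col28a1 had 3 anchor loops. Those of 260 and 450 kb ran from the end of the gene and from near its start to the same bin downstream at chr6:7730001-7740000 (FDR 0.0182 and 0.0217), and that of 530 kb ran from the start site bin of its neighbour Mios to a bin in Ica1 (FDR 0.0459), all at scale 2.11. Among the short-chain network genes, Col8a1 had 1 anchor loop of 630 kb (FDR 0.00017), and Col8a2 and Col10a1, the chain of hypertrophic cartilage, had none. The nearest anchors to Col8a2 and Col10a1 lay 117 and 59.98 kb from their start sites, and 193 kb for Col20a1.

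Over all 50 distinct anchor loops, distances and FDRs were close to those of the whole list. The median distance was 220 kb (order statistic 95% interval 160 to 310 kb), against 270 kb for the 6040 loops anchored at any protein-coding gene and 280 kb for all autosomal loops, and the interval held both values. Loops under 200 kb made up 42% (29.4 to 55.8%), against 34.1% of all. The median FDR was 0.0108 beside 0.0112 for all loops, 80% of the collagen loops had an FDR under 0.05 beside 79%, and 46% had one under 0.01 beside 48.1%. The smallest detection scale was listed for 84% beside 71.6%.

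**Figure D5:**
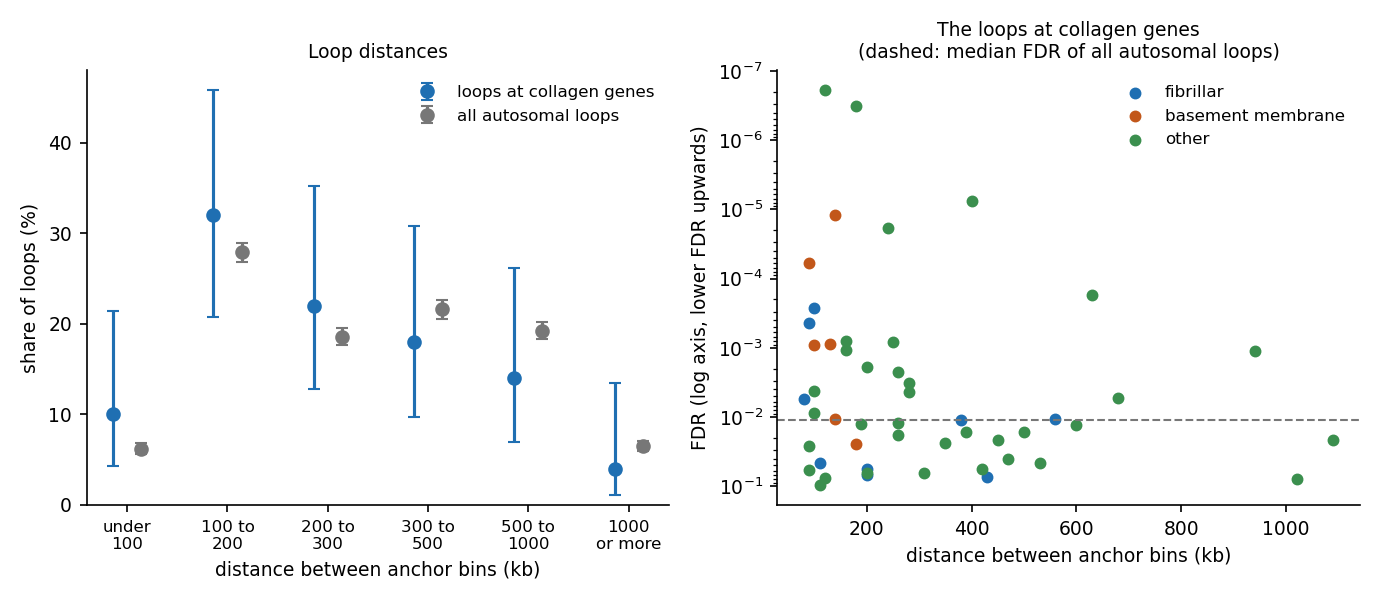
Left, share of loops (%) by distance between the anchor bins for the 50 loops at collagen genes (blue) and the 6689 autosomal loops (grey), with 95% Wilson intervals. Right, each collagen loop by distance (kb) and FDR on a log axis with lower FDR upwards, coloured by class, with the median FDR of all autosomal loops, 0.0112, dashed: every collagen share on the left has an interval that holds the grey share, and the 5 points of lowest FDR lie at 120 to 400 kb.

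The loops were also described by where their anchors lay in the genes and what they reached. Of the 33 genes with an anchor loop, 30 had an anchor bin over the gene body, and Col5a3, Col9a2 and Col9a3 had one near the start site alone. There were 41 anchor bins over collagen gene bodies. Of these, 34 overlapped an exon of the coding transcript with the most exonic bases and 7 did not. The same share was not computed for other bins or other genes, so whether 34 of 41 is many cannot be said. For 52 of the 57 pairs of a collagen gene and an anchor loop, the gene lay at 1 anchor, and the partner was upstream in 29 and downstream in 23, or 55.8% upstream (42.3 to 68.4%) beside 52.5% for all genes. The partner bin held a protein-coding start site in 11.5% of them beside 13.8% for all genes, a gene body without a start site in 44.2% beside 46.3%, and no protein-coding gene in 44.2% beside 39.9%. In the other 5 pairs both anchors lay at the same gene: Col13a1, Col22a1, Col23a1, Col26a1 and Col27a1.

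A CTCF consensus match with at most 1 mismatch was present in 55 of the 92 collagen anchor bins, 59.8% (49.6 to 69.2%), against 48.5% of all autosomal anchor bins and 21.6% of all autosomal 10 kb bins. The share of G and C was 45.9% in the collagen anchor bins, 44.3% in all anchor bins and 41.9% in all bins, and its part in the difference was not tested. With no mismatch allowed, the shares were 23.9, 13.6 and 2.53%, and with at most 2 mismatches they were 92.4, 93.7 and 82.4%, so that the collagen share was then the lower of the first 2. Of the 50 loops, 20 had a match in both bins and 8 had one in neither, beside 1777 and 1796 of all 6689 autosomal loops. Where the better match gave each bin a direction, 11 of 17 loops, 64.7% (41.3 to 82.7%), had matches facing each other, against 68.6% of all autosomal loops with a direction at both ends. With no mismatch it was 3 of 5, 60%, against 82.8%, and with at most 2 mismatches 13 of 22, 59.1%, against 57.5%, so the order of these shares depends on the mismatches allowed. The 120 kb loop of Col22a1 was the only 1 of the 17 with matches facing apart, and 5 had both in the same direction, among them both loops of Col14a1.

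Genes whose products make, bind or remodel collagen were counted in the same way. Of 63 autosomal genes in 6 lists, 27 had an anchor loop, 42.9%, 6 had the start site in an anchor bin, 9.52%, and 17 were spanned, 27%, beside 36.4, 7.35 and 28.8% of all genes. Their median length was 26.1 kb, and weighted by the lengths of the 63 the shares of all genes were 40.1, 7.83 and 29.8%. Among 21 modifying enzymes and chaperones, 7 had an anchor loop, 33.3% beside a weighted 36.8% of all genes, among them Serpinh1, the collagen chaperone HSP47, and P4ha1, a prolyl hydroxylase subunit, while P3h3, Fkbp14 and Colgalt2 had the start site in an anchor bin. Of 13 processing and cross-linking genes, 6 had an anchor loop, 46.2% beside a weighted 48.6%. None of the 13 had a start site in an anchor bin, beside a weighted 9.27%. The 6 with an anchor loop included Adamts2, Adamts3 and Adamts14, the procollagen N-proteinases, and Loxl1, a lysyl oxidase. Of 9 receptor genes 3 had an anchor loop, Itga1, Itga2 and Ddr2, or 33.3% beside a weighted 50% of all genes.

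Mmp14, a membrane bound collagenase, was 1 of 3 degrading proteases of 6 with an anchor loop, 50% beside a weighted 26.9% of all genes. Its start site bin was joined over 200 kb to a bin in Dad1 at an FDR of 3.00e-05. Fmod, a proteoglycan that binds fibrils, had its start site bin joined over 90 kb (FDR 0.0341). An anchor loop was listed for 3 of the 7 fibril-binding proteoglycan genes, 42.9% beside a weighted 28.1%, and 5 of the 7 fibril-binding proteoglycan genes were spanned, beside 28.8% of all genes. The neighbours Dcn, Lum and Kera lay inside the same 2 loops, so the 5 genes rest on 4 loops. Of 7 noncollagenous genes of the tectorial membrane and otoliths, 5 had an anchor loop: Tecta, Tectb, Otog, Otogl and Otoa. The share was 71.4% beside a weighted 45.2% of all genes, and the difference was not tested. Otogl, which encodes otogelin-like, had its start site bin joined over 60 and 110 kb to bins in its own body (FDR 0.00783 and 0.0522), and it was the only gene of that list with a start site in an anchor bin.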

How the data were processed

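Micro-C libraries of 4 cochlear replicates were aligned by the authors to mm10 with BWA-MEM, filtered to distal chimeric pairs, deduplicated with pairtools, merged and binned with Juicer, and loops were called with Mustache in 10 kb bins at a threshold of 0.1. Versions were not given in the sources used here. The deposited values are an FDR (an adjusted p-value, or q-value) and a detection scale, a score given by the authors' loop caller. ATAC-seq and CUT&RUN samples were not analysed here.

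Anchor bins were overlapped with GENCODE vM21 genes in Python 3.11.15 (pandas 2.3.3), using for exons the coding transcript with the most exonic bases. Shares carry 95% Wilson intervals (scipy 1.17.1). The CTCF consensus, from general knowledge, was searched in GRCm38.p6 on both strands. Functions were tested on simulated data. Promoters came from RefSeq entries. Every collagen gene is named, with the distance and FDR of each loop for genes with a start site in an anchor bin or with 2 or more anchor loops and for the 5 loops of lowest FDR. The members, classes and lists were chosen with earlier results of these data known. All 8 columns of the file came from merged samples.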

Additional observations from a re-analysis of the deposited data

How the results depend on the processing

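Of 61 recomputed values, 52 stayed at or within 1.5 times the count or inside the interval reported. Some of the 52 lay right at that limit. Collagen genes with an anchor loop went from 33 to 22 at an FDR below 0.01. With merged calls, start site genes went from 9 to 6. Spanned genes went from 17 to 12 at an FDR below 0.05, 28.6% beside 24.5% of all genes. At an FDR below 0.01, which keeps 3217 loops, the collagen genes with a start site in an anchor bin fell to 5 (without Col3a1, Col11a1, Col12a1 and Col26a1), spanned genes to 9, distinct anchor loops to 23, and genes with neither kind of loop rose to 19. The shares of all genes fell too, to 3.57% with a start site in an anchor bin and 15.5% spanned. With neither kind of loop, the share of all genes rose to 67.5%, beside 45.2% of the collagen genes. Collagen anchor bins with a CTCF consensus match made up 23.9% with no mismatch and 92.4% with at most 2 mismatches, beside 13.6% and 93.7% of all anchor bins, so the direction turned with 2 mismatches. The number of collagen genes with an anchor loop ran from 22 to 35 over its 9 alternatives, and was above the share of all genes in each, also when that share was weighted by the lengths of the collagen genes, a comparison chosen after seeing the data. The gap to the weighted share was narrowest without loops that join 2 collagen genes, at 61.9% beside 57%, with 52.4% beside 38.7% at an FDR below 0.01 and 83.3% beside 67.0% with 50 kb around the start site. Merging calls left 6 start site genes, without Col12a1, Col6a1 and Col6a2, and leaving out loops that join 2 collagen genes, an alternative chosen after seeing the data, left 7, and took the collagen genes of 100 to 200 kb with an anchor loop from 18 of 18 to 12 of 18, below the 70.5% of all genes of that length. The same alternative took the basement membrane genes with an anchor loop from 6 to 3 and the type VI genes with one from 6 to 2. It took the type VI genes with a start site in an anchor bin from 3 to 1. Loops that join 2 other genes stayed in the shares of all genes under this alternative, so its comparisons are not like for like. No paired analysis was possible because every loop was called from the 4 replicates together, and leaving out a replicate could not be run for the same reason. The list gives no contact count per loop, so a gene without a loop is one at which none was listed.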

Other observations

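The 2 collagen genes of chromosome X were not among the members. Col4a6 and Col4a5, the chains of the third head-to-head type IV pair, are 309 and 214 kb long. Neither had an anchor loop or a spanning loop, and the nearest of the anchors of the 109 loops on chromosome X lay 624 and 625 kb from their start sites. Both autosomal type IV pairs had a loop joining the genes, and the difference was not tested.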
